A study of Mus musculus with 24 samples.

Results

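Ppp1r15a, Trib3 and Nupr1 are stress-induced genes that lie downstream of the transcription factors ATF4 and CHOP, and their RNA was followed here through 8 h of endoplasmic reticulum (ER) stress in cells with and without CHOP. The 3 genes were taken by name through the probe-to-gene table of the array, with all of their probe sets, out of 8251 genes with a probe set. Each of them had 1 probe set: 160463_at for Ppp1r15a (gene at chr7:45522917-45526268), 161067_at for Trib3 (chr2:152337425-152344060) and 160108_at for Nupr1 (chr7:126623246-126625470), with RefSeq coordinates of the mouse build GRCm38.p6. Which exons the probes match is not known from the files used. RNA came from primary mouse embryonic fibroblasts, unimmortalised connective tissue cells grown from embryos, and was hybridised to 24 arrays. Wild type cells and CHOP-/- cells, in which Ddit3, the gene for CHOP, is knocked out, were left untreated, or received 2 µg/ml tunicamycin for 4 h or 8 h. Each of the 6 groups held 4 arrays, lettered A to D. Passage 3 is stated for the untreated wild type arrays A, B and C. The labels give neither a time for the untreated cells nor a group with solvent alone, so a change after tunicamycin cannot be told apart from a change with time or handling. Whether the 4 arrays of each group stand for separate cultures or embryos is not stated either, and the p-values measure the spread between these arrays, which may be technical.

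Tunicamycin stops the attachment of N-linked sugars to new proteins, and misfolded chains build up in the ER. One of the sensors of this state, the kinase PERK, phosphorylates the translation factor eIF2α, which slows protein synthesis in general and raises translation of ATF4. ATF4 and its target CHOP then switch on genes that act back on the pathway. Ppp1r15a encodes GADD34, the inducible subunit that brings protein phosphatase 1 to eIF2α and so restores translation. Trib3 encodes a pseudokinase that binds AKT and also ATF4 and CHOP, whose activity it dampens. Nupr1 encodes a small, largely unstructured nuclear protein that binds chromatin proteins and is induced by many kinds of cell stress.

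The promoters of the 3 genes are shown because these are the stretches through which ATF and C/EBP factors could act on them. They are the 250 bases before each RefSeq start of transcription in GRCm38.p6, 5′ to 3′ on the gene's own strand, which is the minus strand for all 3 genes. Capitals mark letters that match a searched motif. The Ppp1r15a window is chr7:45526269-45526518, the Trib3 window chr2:152344061-152344310 and the Nupr1 window chr7:126625471-126625720. A short piece of Trib3 just after the start, chr2:152344031-152344054, is given as well.
Ppp1r15a upstream: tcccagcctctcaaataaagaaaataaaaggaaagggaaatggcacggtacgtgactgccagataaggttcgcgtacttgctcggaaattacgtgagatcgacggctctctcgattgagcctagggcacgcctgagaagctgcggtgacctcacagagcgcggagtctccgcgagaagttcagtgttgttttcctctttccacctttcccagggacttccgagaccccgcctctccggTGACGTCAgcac
Trib3 upstream: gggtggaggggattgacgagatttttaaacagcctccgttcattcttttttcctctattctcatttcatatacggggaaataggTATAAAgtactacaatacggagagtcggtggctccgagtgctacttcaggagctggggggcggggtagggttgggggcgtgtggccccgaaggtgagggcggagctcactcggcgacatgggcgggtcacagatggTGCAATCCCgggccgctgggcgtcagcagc
Trib3 after the start: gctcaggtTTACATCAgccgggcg
Nupr1 upstream: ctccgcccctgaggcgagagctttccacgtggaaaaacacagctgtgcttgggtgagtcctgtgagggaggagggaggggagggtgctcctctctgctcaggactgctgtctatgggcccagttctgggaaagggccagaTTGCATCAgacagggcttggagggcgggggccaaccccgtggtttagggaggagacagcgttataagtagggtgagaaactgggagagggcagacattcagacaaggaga

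Motifs were searched on both strands in windows of 300 bases, from 250 before to 50 after the start, and the share of all 32851 such windows that hold each motif is given with it. The motif letters were chosen after the windows had been read. Ppp1r15a held TGACGTCA, the full site of CREB and ATF factors, from 12 to 5 bases before the start, and 1.79% of windows hold these letters. Trib3 held TGCAATCCC from 30 to 22 bases before the start. It matches TGCAATNCC, a form of the site bound by CHOP paired with a C/EBP protein, which 0.597% of windows hold. In Trib3 and Nupr1 the core of the composite C/EBP-ATF element, TGATGNAA, was read on the opposite strand. Trib3 has it as TTACATCA at bases 15 to 22 counted from the start as 1, and Nupr1 as TTGCATCA from 110 to 103 bases before the start. This core is in 3.97% of windows. The capitals TATAAA in the Trib3 window lie 166 to 161 bases before the start, and Ppp1r15a has the same letters at bases 16 to 21 counted from the start as 1, past the end of the printed stretch; 13.6% of windows hold them. The long ER stress elements ERSE, in 0.119% of windows, and ERSE-II, in 0.0365%, were not matched in the 3 windows. A match is a run of letters and not a measured binding site.

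Before the results, the labels were checked. The Ddit3 signal lay between 215.5 and 4883 on the wild type arrays and between 6.9 and 40.4 on the CHOP-/- arrays. Neither the labels nor the files used here place the probes relative to the deleted part of the gene. Of 15 measured fibroblast markers, 14 had a mean linear signal above the 40th percentile of all probe sets, led by Col1a1 at 7912. Epithelial markers were above it for 2 of 8 genes and endothelial markers for 1 of 7. Striated muscle markers were above it for 7 of 10, led by Actc1 at 1531, and neural markers for 4 of 8, led by Tubb3 at 1620. Some of these sums moved with the groups. The summed neural signal was 2960 to 3150 on untreated wild type arrays and 2003 to 2282 on wild type arrays at 8 h, against 2919 to 3653 and 3166 to 3592 on the CHOP-/- arrays. The summed muscle signal was 2027 to 2336 untreated and 1330 to 1758 at 8 h in wild type, against 1230 to 2200 and 1318 to 1937 in CHOP-/- cells. The summed endothelial signal at 8 h was 127.1 to 166.5 in wild type and 211.4 to 322.7 in CHOP-/- cells, and untreated it was 164.0 to 253.2 and 237.6 to 372.3. Their part in the results below was not tested. Leukocyte markers set some arrays apart. Over 9 measured leukocyte genes the summed signal was 1972 to 3669 on the wild type arrays A and B, against 493.7 to 868.1 on the wild type arrays C and D, 597.5 to 1417 on the CHOP-/- arrays A and B and 451.3 to 1138 on the CHOP-/- arrays C and D. The macrophage gene Lyz2 reached 1563 on a wild type array B. The split followed the array letter at every time. Calls below that were lost without the arrays A and B of all groups, which leaves 2 arrays per group, are named with the results. In whole-culture RNA, fewer cells of a type and less RNA per cell cannot be told apart.

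**Figure D1:**
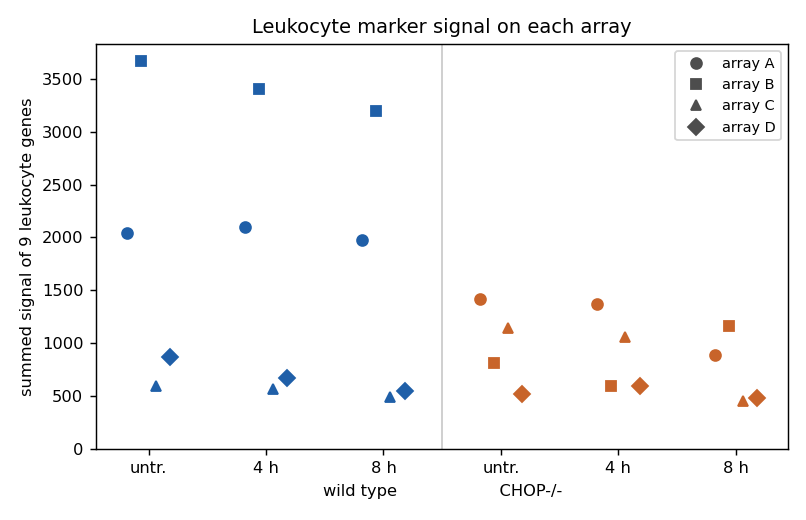
Summed signal of 9 leukocyte marker genes (linear array units) on each of the 24 arrays, by genotype and time, with the array letter as the symbol. The wild type arrays A and B lie at 1972 or above at every time, and all other arrays at 1417 or below.

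Ppp1r15a rose in both genotypes and was lower in stressed cells without CHOP. In untreated wild type cells its signal on arrays A to D was 286.2, 245.5, 383.0 and 261.3. After 4 h of tunicamycin it was 1133, 929.4, 834.1 and 1053, and after 8 h it was 1232, 1373, 1238 and 1099. Every treated wild type array lay far above every untreated one, while the 4 h and 8 h arrays overlapped. The group means were 294 ± 61.7 (SD, n = 4) untreated, 987 ± 132 at 4 h and 1236 ± 112 at 8 h.

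In cells without CHOP the Ppp1r15a signal on arrays A to D was 210.7, 249.0, 140.9 and 346.6 untreated. It was 604.6, 486.4, 395.6 and 453.7 at 4 h, and 635.0, 718.8, 561.7 and 584.0 at 8 h. These arrays again separated from the untreated ones, but all 8 treated CHOP-/- arrays lay below all 8 treated wild type arrays. The means were 237 ± 85.8 (SD, n = 4), 485 ± 88.1 and 625 ± 69.7.

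The scale used for testing was log2 of the signal plus 5.7, with the log2 values then quantile normalized. On it Ppp1r15a rose in wild type cells by 1.74 at 4 h (95% interval 1.34 to 2.15, limma adjusted p = 4.41e-06) and by 2.02 at 8 h (1.62 to 2.43, adjusted p = 1.22e-07). These are 3.35-fold and 4.07-fold changes. The rise at 4 h had rank 11 among 5688 tested genes, and the rise at 8 h had rank 15. CHOP-/- cells gave a rise of 1.09 at 4 h (0.68 to 1.495, adjusted p = 0.00409) and by 1.45 at 8 h (1.04 to 1.86, adjusted p = 1.83e-05), 2.12-fold and 2.73-fold. Both times in a genotype share the same untreated arrays. From 4 h to 8 h the differences were 0.28 in wild type (adjusted p = 0.572) and 0.36 in CHOP-/- cells (adjusted p = 0.327). Without the arrays A and B of every group, the values were 1.55 for wild type at 4 h (adjusted p = 0.172), 0.95 for CHOP-/- at 4 h (0.291) and 1.35 for CHOP-/- at 8 h (0.0648), none of which passed, while wild type at 8 h gave 1.83 (0.0143). Without arrays C and D, which also leaves 2 arrays per group, each rise was called. Wild type gave 1.94 at 4 h (adjusted p = 0.000377) and 2.22 at 8 h (4.51e-05). CHOP-/- cells gave 1.23 (0.0106) and 1.55 (0.000753). With the 2 compared groups alone in the fit, the CHOP-/- rise at 4 h had an adjusted p of 0.134.

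Between the genotypes, Ppp1r15a was lower in CHOP-/- cells under stress. The log2 difference was -1.04 at 4 h (-1.45 to -0.63, adjusted p = 0.0035, 2.06-fold) and -0.96 at 8 h (-1.37 to -0.55, adjusted p = 0.00459, 1.95-fold), and the arrays did not overlap at either time. In untreated cells the difference was -0.39 (-0.79 to 0.02, adjusted p = 0.596), the arrays overlapped, and leaving out 1 array moved it between -0.59 and -0.17. The rise itself was smaller in CHOP-/- cells by 0.66 at 4 h (interval of the difference -1.23 to -0.08, adjusted p = 0.997) and by 0.58 at 8 h (-1.15 to 0.00, adjusted p = 0.999), and neither passed the test over all genes. Leaving out 1 array moved these differences between -0.87 and -0.45 at 4 h and between -0.79 and -0.37 at 8 h. So a lower stressed level was measured in CHOP-/- cells, and a smaller rise was not established. Without the arrays A and B of every group the genotype difference was -1.12 at 4 h (adjusted p = 0.203) and -1.0 at 8 h (adjusted p = 0.334), as large as with them but not called. Without arrays C and D it was -0.96 at 4 h (adjusted p = 0.0341) and -0.93 at 8 h (adjusted p = 0.0284), both called.

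**Figure D2:**
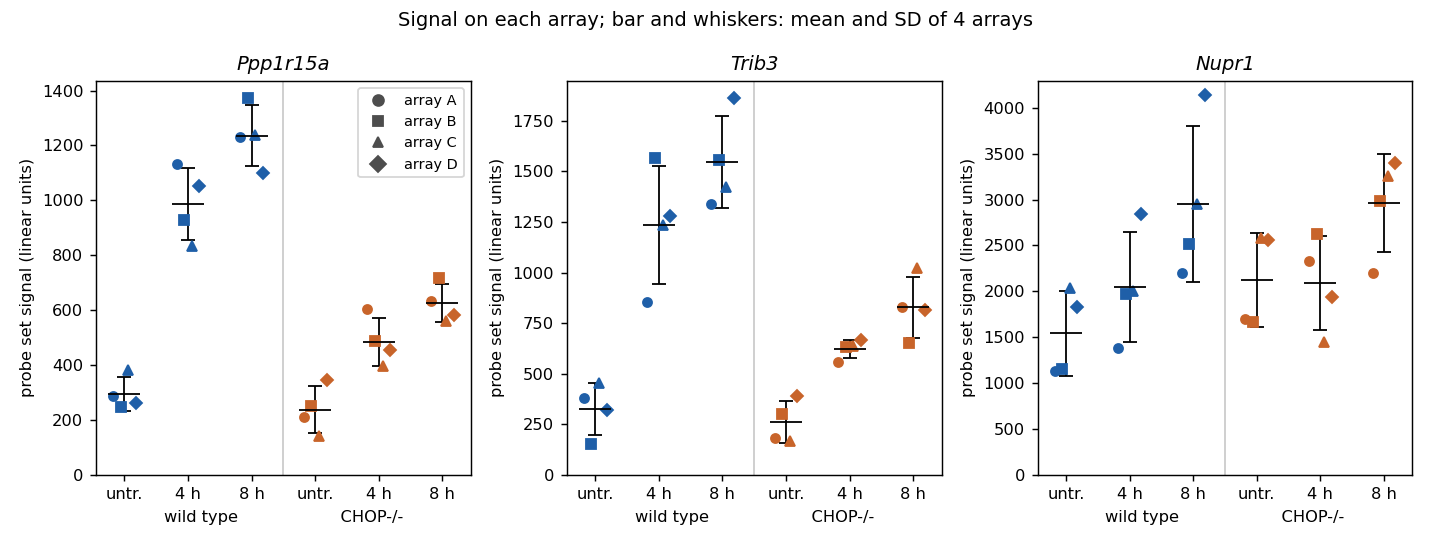
Probe set signal (linear array units, from 0) of Ppp1r15a, Trib3 and Nupr1 on each array, by genotype and time; symbols are array letters, and bars with whiskers are the mean and SD of 4 arrays. Treated wild type arrays lie above all other arrays for Ppp1r15a, from 834.1 upwards, while for Nupr1 the groups overlap widely.

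Trib3 had larger fitted rises than Ppp1r15a, with overlapping intervals, and a wider spread. Its signal in untreated wild type cells was 377.5, 152.7, 455.4 and 318.1 on arrays A to D. It was 854.9, 1564, 1236 and 1278 at 4 h, and 1341, 1557, 1422 and 1861 at 8 h. Array A at 4 h was the lowest of the treated wild type arrays, and array B the lowest of the untreated ones. The means were 326 ± 128 (SD, n = 4), 1233 ± 291 and 1546 ± 229.

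Trib3 in CHOP-/- cells gave 180.9, 300.4, 169.5 and 391.2 on untreated arrays A to D. The values were 560.0, 631.3, 635.1 and 664.9 at 4 h, with the narrowest spread of any Trib3 group, and 828.4, 652.7, 1021 and 815.2 at 8 h. All treated arrays lay above all untreated ones. The means were 260 ± 105 (SD, n = 4), 623 ± 44.5 and 829 ± 150.

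Trib3 rose in wild type cells by 1.94 log2 at 4 h (95% interval 1.39 to 2.49, limma adjusted p = 6.6e-05, 3.83-fold, rank 8 of 5688) and by 2.28 at 8 h (1.73 to 2.83, adjusted p = 1.78e-06, 4.86-fold, rank 9). The CHOP-/- rise was 1.34 at 4 h (0.79 to 1.89, adjusted p = 0.00907, 2.53-fold) and 1.72 at 8 h (1.17 to 2.27, adjusted p = 9.36e-05, 3.29-fold). The step from 4 h to 8 h was 0.34 in wild type (adjusted p = 0.63) and 0.38 in CHOP-/- cells (adjusted p = 0.469). The 4 h rises were not called without the arrays A and B of every group, at 1.68 in wild type (adjusted p = 0.105) and 1.35 in CHOP-/- cells (0.137). For CHOP-/- cells at 4 h that was also so without arrays C and D (1.34, adjusted p = 0.183) and with the 2 compared groups alone in the fit (1.34, adjusted p = 0.0743).

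The lower Trib3 level in stressed CHOP-/- cells sat at the edge of the test. The arrays of the genotypes did not overlap at 4 h or at 8 h, and each time an exact permutation test (two-sided) gave p = 0.0286, the smallest that 4 arrays against 4 can give. Over all genes the log2 difference was -0.94 at 4 h (-1.49 to -0.39, limma adjusted p = 0.062) and -0.91 at 8 h (-1.45 to -0.36, adjusted p = 0.0544), so neither was called. Fits of all groups with the letter as a replicate block gave -0.94 at 4 h (adjusted p = 0.0457) and -0.91 at 8 h (adjusted p = 0.0412). With the 2 groups alone and no block the adjusted p was 0.0275 at 4 h and 0.00501 at 8 h. With the block added at 8 h it was 0.00381. Over all genes, arrays of the same letter deviated together in the 2 genotypes at 8 h, but not for every letter at 4 h. With the 2 groups alone the difference was called without a block, and in the main fit of all groups it was not. Whether the calls with the block rested on that pairing was not tested. Leaving out wild type array A at 4 h gave -1.11 and an adjusted p of 0.0412. It was the only call among the 8 fits with 1 array left out (adjusted p 0.0412 to 0.189). At 8 h none of the 8 such fits was called (0.0637 to 0.16). In untreated cells the difference was -0.34 (-0.89 to 0.21, adjusted p = 0.761), and leaving out 1 array moved it between -0.64 and -0.16. The rise was smaller in CHOP-/- cells by 0.60 at 4 h (-1.37 to 0.18) and by 0.56 at 8 h (-1.34 to 0.21), with adjusted p-values of 0.997 and 0.999. With 1 array left out the 4 h value lay between -0.78 and -0.30 and the 8 h value between -0.75 and -0.26.

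Nupr1 had the smallest fitted rises of the 3 genes. In untreated wild type cells its signal was 1132, 1156, 2039 and 1832 on arrays A to D. At 4 h it was 1381, 1975, 1999 and 2839, and at 8 h it was 2200, 2514, 2949 and 4138. Every 8 h array was above every untreated array, although the lowest 8 h value, 2200, was close to the highest untreated one, 2039. The 4 h arrays overlapped both. The means were 1540 ± 465 (SD, n = 4), 2049 ± 599 and 2950 ± 850.

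The spread of Nupr1 in wild type cells followed the array letter. The untreated arrays A and B, those with high leukocyte markers, had the lower Nupr1 signals, and array D was the highest at 4 h and at 8 h. Within each letter the log2 rise from untreated to 8 h was 0.97 for A, 1.11 for B, 0.63 for C and 1.11 for D, so all 4 letters moved the same way. From untreated to 4 h the changes were 0.37, 0.77, -0.06 and 0.65. For comparison, the 8 h rise by letter ran from 1.60 to 2.38 for Ppp1r15a and from 1.59 to 3.22 for Trib3.

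In CHOP-/- cells the Nupr1 signal was 1697, 1664, 2584 and 2556 untreated on arrays A to D. It was 2330, 2630, 1446 and 1938 at 4 h, and 2201, 2983, 3262 and 3398 at 8 h. All 3 groups overlapped. The untreated arrays A and B again had the lower Nupr1 signals. The summed leukocyte signal of the untreated CHOP-/- arrays A to D was 1417, 811.2, 1138 and 520.1, without that split. A link between Nupr1 and the leukocyte signal was not tested. The 4 h arrays reversed the letter order of the untreated ones, with C and D low and A and B high. The means were 2125 ± 514 (SD, n = 4), 2086 ± 512 and 2961 ± 535.

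Nupr1 rose in wild type cells at 8 h by 0.95 log2 (95% interval 0.45 to 1.46, limma adjusted p = 0.00825, 1.94-fold, rank 153 of 5688). Its exact permutation p was 0.0286. Without the arrays A and B of every group the rise was 0.87 (adjusted p = 0.048), and without C and D it was 1.03 (adjusted p = 0.00433). A part of the leukocyte signal in this rise was not tested. At 4 h the wild type difference was 0.43 (-0.07 to 0.94, adjusted p = 0.586). CHOP-/- cells gave -0.04 at 4 h (-0.55 to 0.46, adjusted p = 0.964) and 0.46 at 8 h (-0.04 to 0.97, adjusted p = 0.228). The 4 h value in CHOP-/- cells had no stable sign, at 0.55 without arrays C and D and -0.65 without A and B. From 4 h to 8 h Nupr1 differed by 0.52 in wild type (adjusted p = 0.305) and by 0.51 in CHOP-/- cells (adjusted p = 0.247). Without A and B the last was 1.03 (adjusted p = 0.0299), and without C and D it was -0.02.

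The stressed levels of Nupr1 did not separate by genotype. The CHOP-/- minus wild type difference was 0.05 at 4 h (-0.45 to 0.55, adjusted p = 0.952) and 0.04 at 8 h (-0.47 to 0.54, adjusted p = 0.971). In untreated cells CHOP-/- arrays averaged higher by 0.53 (0.02 to 1.03, adjusted p = 0.52), and the groups overlapped. The response differed by -0.48 at 4 h (-1.19 to 0.24) and by -0.49 at 8 h (-1.20 to 0.22), with adjusted p-values of 0.997 and 0.999. At 4 h that value depended on the array letters, at -0.95 without A and B and -0.01 without C and D. With 1 array left out it lay between -0.63 and -0.30 at 4 h and between -0.63 and -0.33 at 8 h. The passing test in wild type and the failing test in CHOP-/- cells at 8 h therefore do not show that the rise depended on CHOP, and the interval does not show that it did not.

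**Figure D3:**
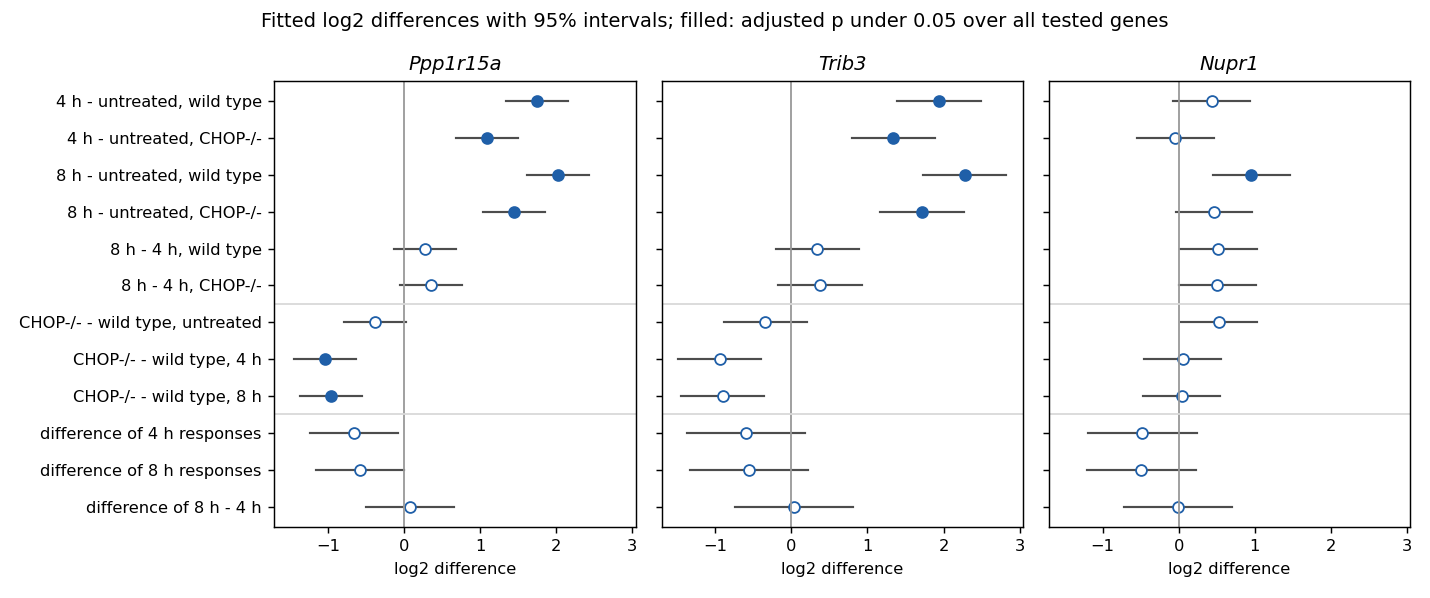
Fitted log2 differences of the 3 genes in 12 comparisons, with 95% intervals; filled points passed an adjusted p of 0.05 over all tested genes. The rises of Ppp1r15a and Trib3 lie between 1.09 and 2.28 and are all filled, and the 3 response differences at the bottom hold no filled point.

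Counted together, 2 of the 3 genes were called higher at 4 h in each genotype. Over all 5688 tested genes the share called higher was 1.79% in wild type and 0.967% in CHOP-/- cells. At 8 h all 3 were called higher in wild type, against 9.62% of genes, and 2 in CHOP-/- cells, against 7.30%. None of the 3 was called between 8 h and 4 h, where 4.13% of genes were called in wild type and 5.54% in CHOP-/- cells in either direction. Arrays that all lay above the untreated ones were found for 2 members at 4 h in wild type (4.57% of genes) and in CHOP-/- cells (3.09%), and at 8 h for 3 in wild type (11.7%) and 2 in CHOP-/- cells (9.92%). Between untreated genotypes none was called, against 0.985%. Ppp1r15a alone was called lower in CHOP-/- cells at 4 h, against 1.32%, and at 8 h, against 1.92%. Non-overlapping lower arrays in CHOP-/- cells, found for Ppp1r15a and Trib3 at both times, occurred in 3.67% of genes at 4 h and 5.92% at 8 h.

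For the response differences, limma called no gene at 4 h, where 229 of 5688 had an unadjusted p under 0.05, and none for the difference from 4 h to 8 h, where 251 did. At 8 h it called 2 genes, 0.0352% of those tested, and 265 had an unadjusted p under 0.05. The median standard error of a response difference was 0.267 log2, against 0.189 for a comparison of 2 groups. The members' differences from 4 h to 8 h were 0.08 for Ppp1r15a, 0.04 for Trib3 and -0.01 for Nupr1, each with an adjusted p of 0.9997.

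Ordered by level, Ppp1r15a ran from wild type 8 h through wild type 4 h, CHOP-/- 8 h, CHOP-/- 4 h and untreated wild type to untreated CHOP-/-. Of the neighbours in that order, wild type 4 h and CHOP-/- 8 h differed by 0.68 log2 (adjusted p = 0.0369), and CHOP-/- 4 h and untreated wild type by 0.70 (adjusted p = 0.0353). These steps, without arrays A and B, were 0.72 (adjusted p = 0.43) and 0.42 (adjusted p = 0.60). The other 3 neighbouring pairs overlapped and did not pass. Trib3 had the same order of groups. There the step from CHOP-/- 4 h to untreated wild type, 0.997 log2, passed (adjusted p = 0.0273; without A and B 0.78, adjusted p = 0.27), and wild type 4 h against CHOP-/- 8 h, 0.56, did not (adjusted p = 0.239). Nupr1 was ordered differently, from CHOP-/- 8 h through wild type 8 h, untreated CHOP-/-, CHOP-/- 4 h and wild type 4 h to untreated wild type. All of its neighbouring groups overlapped and none passed.

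The same division showed in which genes the members resembled over the 24 arrays. The points of such a correlation share groups and letters, so it is given as a description. Of the other 5687 tested genes, the one most like Ppp1r15a was Trib3, with a Pearson r of 0.937 on the log2 scale, and the reverse held too. Next for both came Gadd45a, a growth arrest and DNA damage gene (0.933 with Ppp1r15a, 0.926 with Trib3), and Cebpg, a C/EBP partner of ATF4 (0.927 and 0.892). Ppp1r15a was then closest to Trappc5, a vesicle tethering subunit (0.892), and to Rad52, a recombination gene (0.88). Trib3 was closest to Tmem11, a mitochondrial membrane gene, and to Piga, which begins the synthesis of GPI anchors (0.869 each). Nupr1 had an r of 0.397 with Ppp1r15a and 0.487 with Trib3. The 4 genes most like it were Slc1a4, a neutral amino acid transporter (0.923), Tiprl, a regulator of PP2A-type phosphatases (0.884), Nsmce3, a subunit of the SMC5/6 complex (0.86), and Srp9, a subunit of the signal recognition particle (0.842).

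The changes of these neighbours were of several kinds. Gadd45a rose by 2.46 log2 at 8 h in wild type cells (adjusted p = 6.28e-08) and by 2.64 in CHOP-/- cells (3.29e-08). Cebpg rose by 0.80 (5.78e-05) and 0.83 (4.87e-05), and Piga by 2.99 (1.47e-12) and 3.01 (1.27e-12). Rad52 and Trappc5 had smaller fitted rises in CHOP-/- cells. Rad52 rose by 1.67 (1.99e-07) and 1.40 (3.54e-06) at 8 h, and by 1.42 (8.81e-06) and 0.74 (0.0257) at 4 h. Trappc5 rose by 1.19 (6.07e-06) and 0.93 (0.000174) at 8 h, and at 4 h it rose by 0.92 in wild type (0.000753) and was at 0.43 in CHOP-/- cells (0.209). Tmem11 rose by 0.63 (0.0184) in wild type and 0.88 (0.00176) in CHOP-/- cells at 8 h. The response difference at 8 h passed for none of the neighbours (each adjusted p = 0.999). Slc1a4 resembled Nupr1 in size, with a rise of 0.86 in wild type (adjusted p = 0.0117) and a difference of 0.66 in CHOP-/- cells (adjusted p = 0.0601). Its 4 h values were 0.51 (adjusted p = 0.41) and -0.01 (adjusted p = 0.996). The calls lost without arrays A and B were those of Cebpg in CHOP-/- cells at 8 h, Rad52 at 4 h, Trappc5, Tmem11 and Slc1a4.

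The regulators themselves were set beside the members. Atf4 rose by 0.91 and 0.89 log2 at 4 h and 8 h in wild type cells (adjusted p = 1.86e-06 and 6.69e-07). It rose by 0.93 and 1.06 in CHOP-/- cells (2.61e-06 and 7.4e-08). The 4 h rises were not called without A and B, at 0.82 (adjusted p = 0.0535) and 0.73 (adjusted p = 0.118). Its level at 8 h did not pass between genotypes, at 0.18 (-0.02 to 0.38, adjusted p = 0.373). Ddit3 rose in wild type cells from 300 ± 97.4 (SD, n = 4) to 3652 ± 722 at 4 h and 4383 ± 524 at 8 h, which is 3.60 and 3.87 log2 (adjusted p = 4.67e-07 and 3.62e-08). Over the 24 arrays the r with Atf4 was 0.76 for Ppp1r15a, 0.794 for Trib3 and 0.509 for Nupr1. With Ddit3 it was 0.687, 0.62 and 0.00.

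A list of 37 genes reported downstream of ATF4 or CHOP, with both regulators and without the 3 members, gave the wider frame. Of these, 28 were measured and 24 tested. The gene lists here and below were chosen with earlier results of these data known, so their counts are given as a description. At 4 h, 11 rose and none fell in wild type cells (median 0.55 log2, against -0.03 over all tested genes), and 8 rose and none fell in CHOP-/- cells (median 0.39, against 0.00). Over all tested genes 1.79% and 0.967% were called higher. At 8 h the counts were 18 and none in wild type (median 0.86, against -0.02) and 14 and none in CHOP-/- cells (median 0.60, against -0.01), where 9.62% and 7.30% of all tested genes were called higher. Without the arrays A and B of every group they were 3, 1, 11 and 8 rises in that order, and again none fell. Over all tested genes the calls in either direction then numbered 8, 3, 214 and 147, against 121, 85, 943 and 790 with all arrays. Besides Ddit3, Gadd45a and Atf4, the smallest p-values in wild type at 8 h belonged to Herpud1, a membrane component of ER-associated degradation, Wars, the tryptophanyl-tRNA synthetase gene, and Slc3a2, the heavy chain of amino acid transporters. Herpud1 rose by 3.09 log2 in wild type (adjusted p = 6.06e-16) and 2.99 in CHOP-/- cells (1.26e-15). Wars rose by 1.47 (2.08e-08) and 1.08 (3.02e-06), and Slc3a2 by 0.998 (1.55e-06) and 1.02 (1.33e-06).

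In the response difference at 8 h, 1 of the 24 was called, Ddit3 itself at -3.43 (SE 0.495, adjusted p = 0.00255). That value rests on CHOP-/- signals of 6.9 to 40.4, and its adjusted p moved with the pseudocount. The list median was -0.10, against -0.01 over all tested genes. After Ddit3 the smallest p was that of Ero1a, the ER oxidase that recharges disulfide isomerase. It rose by 1.16 in wild type and by 0.60 in CHOP-/- cells, and the difference of -0.56 (-0.99 to -0.13) had an adjusted p of 0.991. Its level in CHOP-/- against wild type cells was at -0.73 at 4 h (adjusted p = 0.00645) and -0.79 at 8 h (adjusted p = 0.00195), both called. In untreated cells that difference was -0.225 (adjusted p = 0.702). Asns, the asparagine synthetase gene, was at 0.46 and 0.13, with a difference of -0.33 (-0.60 to -0.06, adjusted p = 0.999). Its level was called higher in CHOP-/- cells untreated, by 0.50 (adjusted p = 0.00464), and at 4 h, by 0.35 (adjusted p = 0.0456). At 8 h the genotypes differed by 0.17 (adjusted p = 0.393). In the response difference Vegfa, a blood vessel growth factor gene, went the other way. It was at 0.16 in wild type and 0.90 in CHOP-/- cells, with a difference of 0.74 (0.13 to 1.35, adjusted p = 0.999). With arrays A and B left out, Ddit3 was at -3.55 (adjusted p = 0.902), and the calls of Ero1a in CHOP-/- cells and Asns in wild type at 8 h were lost. The genotype calls of both genes were then lost too. Ero1a was at -0.99 at 4 h (adjusted p = 0.12) and -0.81 at 8 h (adjusted p = 0.228). Asns was at 0.55 untreated (adjusted p = 0.288) and 0.33 at 4 h (adjusted p = 0.365).

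**Figure D4:**
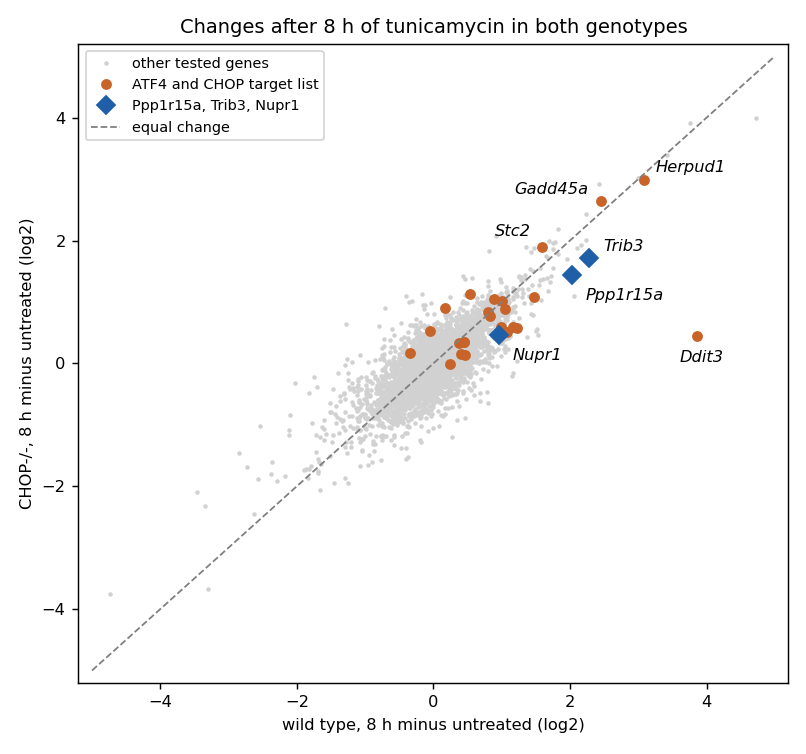
Log2 change after 8 h of tunicamycin in wild type cells (horizontal) and CHOP-/- cells (vertical) for all tested genes, with the ATF4 and CHOP list in orange, the 3 members as blue diamonds and a dashed line of equal change. Ppp1r15a at 2.02 and 1.45, Trib3 at 2.28 and 1.72 and Nupr1 at 0.95 and 0.46 lie below the line, and Ddit3 lies farthest below it; the axes share no arrays.

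The circuit on which GADD34 acts was looked at through 18 genes for eIF2 and eIF2B subunits, eIF2α kinases, their inhibitors and the phosphatase, of which 15 were measured and 14 tested. At 8 h in wild type cells 2 rose and 1 fell (median 0.08 log2, against -0.02 over all genes), where 9.62% of all tested genes were called higher and 6.96% lower. Dnajc3, which encodes the PERK inhibitor p58IPK, rose by 2.24 (adjusted p = 5.34e-07) and Eif2ak3, the PERK gene, by 1.41 (5.96e-05). The same 2 genes rose in CHOP-/- cells, by 2.42 (2.31e-07) and 1.54 (2.83e-05), and none fell. There 7.30% of all tested genes were called higher. The gene that fell in wild type cells was Ppp1r15b, the constitutive counterpart of Ppp1r15a, by 0.67 log2 (-1.02 to -0.32, adjusted p = 0.00816). In CHOP-/- cells it was at -0.36 (-0.71 to -0.01, adjusted p = 0.175), and its response difference of 0.31 did not pass (adjusted p = 0.999). Its value without arrays A and B was -0.72 (adjusted p = 0.0556), which was not called. The next smallest p-values in wild type cells at 8 h were those of Eif2s2, the gene for eIF2β, at 0.54 (adjusted p = 0.0619), and of the eIF2B subunit genes Eif2b4 and Eif2b1, at 0.34 (0.12) and 0.19 (0.426). Ppp1cb, a catalytic subunit gene of the phosphatase, was at -0.17 (adjusted p = 0.472), with a response difference of 0.28 (-0.13 to 0.70, adjusted p = 0.999). At 4 h 2 genes of the circuit rose in wild type cells, Dnajc3 by 1.15 (adjusted p = 0.00907) and Eif2ak3 by 0.90 (0.0263). There was 1 in CHOP-/- cells at 4 h, Dnajc3, which rose by 0.97 (0.0415). At 4 h 1.79% of all tested genes were called higher in wild type and 0.967% in CHOP-/- cells. None of the 3 calls of circuit genes at 4 h held without the arrays A and B of every group.

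Around Trib3, 5 of 9 listed Tribbles relatives and binding partners were tested. Sqstm1, the autophagy receptor p62, rose by 0.86 log2 at 8 h in wild type cells (adjusted p = 5.05e-06), where 9.62% of all tested genes were called higher. It was at 0.25 in CHOP-/- cells (adjusted p = 0.137), and the response difference of -0.61 (-0.93 to -0.29) did not pass over all genes (adjusted p = 0.405). The other 4 were not called at either time in either genotype, among them Akt1 at -0.22 (adjusted p = 0.491) and Cop1 at 0.10 (adjusted p = 0.631) in wild type cells at 8 h. Of 4 listed partners of the NUPR1 protein, 2 were tested. Cops5, a COP9 signalosome subunit, was at -0.15 (adjusted p = 0.447) and Msl1, a histone acetylation scaffold, at 0.32 (adjusted p = 0.295) in wild type cells at 8 h. Neither was called in any of the 12 comparisons.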

How the data were processed

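RNA was measured on 24 arrays, 4 per group. The deposited values are linear probe set intensity values for 12488 probe sets, 66 of them controls. From the values, every array has a mean of 249.9 after 2% of probe sets are trimmed at each end, so the arrays were scaled before deposit, with software and settings not given in the sources used here. Array medians ran from 48.4 to 73.0. Control signal ratios of 3′ over 5′ probes lay at 0.752 to 0.852 (Gapdh) and 0.948 to 1.24 (actin). Precision is limited by the number of arrays.

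Of the probe sets, 10833 were given 1 gene by the array's gene table, 396 had several genes and were not used, and 10817 had an identifier in RefSeq GRCm38.p6. The probe set with the highest mean stood for its gene. A pseudocount of 5.7, the 20th percentile of signals, was added before log2, so changes of low genes are understated. The arrays were then quantile normalized, since the wild type 4 h arrays A and C had medians 0.291 above and 0.303 below the mean of all arrays on the log2 scale. Genes at or below the 40th percentile of mean normalized log2 signal, 27.8 in signal units, were left out, which left 5688. All 3 members passed. A model with 6 group means was fitted over the 24 arrays in limma 3.58.1 (R 4.3.3) with an intensity trend (18 residual and 5.2 prior degrees of freedom), and 12 comparisons of the design were drawn from it, with further pairs of groups for the order of levels. A call is a Benjamini-Hochberg adjusted p under 0.05 over all tested genes. The script was tested on simulated data. Promoter sequences are RefSeq's, from 32851 windows of 27025 genes. Figures used matplotlib 3.10.9.

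Arrays of the same letter deviated together in all wild type comparisons (correlation of residuals 0.251 to 0.617) and between genotypes at 8 h (0.285 to 0.543). In the other comparisons at least 1 letter lay at or under 0.1. The main fit held no letter term, so its p-values are unpaired. The letter as a block was used only as an alternative.

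The members and the gene lists were chosen with earlier results of these data known. Genes were named by a rule: the members, Ddit3 and Atf4 always, from each list up to 6 genes by adjusted p in wild type at 8 h, up to 4 by the response difference at 8 h and any called member against the list median, and for each member the 4 genes with the highest correlation. Alternatives covered the pseudocount, the normalization, the filter, the choice of probe set, the trend, array weights, the letter as a block, the compared groups alone and each array left out.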

Additional observations from a re-analysis of the deposited data

Results flagged for a closer look

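Among all tested genes, 2 had responses at 8 h that differed between CHOP-/- and wild type cells by the test of the difference itself (limma). Ddit3, the deleted gene, differed by -3.43 log2 (adjusted p = 0.00255). The CHOP-/- signals behind it are 6.9 to 40.4. It was -3.31 with a pseudocount of 1 (adjusted p = 0.0469) and -3.54 with 32 (adjusted p = 8.87e-08), settings chosen after seeing the data. Its size changed little between these settings, while its adjusted p changed by orders of magnitude. Vcam1, which encodes a cell adhesion molecule, differed by -0.961 (SE 0.175, adjusted p = 0.0389). With each array left out in turn the number of genes called ranged from 1 to 2, and without the arrays A and B of every group it was 0. In the 18 groups of 4 arrays of the 3 members, no array stood apart from the others by Dixon's test at the 95% level; the largest gap was 0.704 of the group's range, for Ppp1r15a in untreated wild type cells.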

How the results depend on the processing

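Over 36 values of the 3 genes, 818 of 873 alternatives kept the direction and the side of the threshold; the cause of the others was not tested unless fewer arrays or genes are named. Trib3 in CHOP-/- against wild type became called at 4 h with a pseudocount of 32 (-0.91), the letter as a replicate block (-0.94) or the compared groups alone (-0.94), and at 8 h with a pseudocount of 32 (-0.88), a filter at the 60th percentile (-0.91), array weights (-0.80), the letter as a block (-0.91), the compared groups alone (-0.91) or both together (-0.91). The block, which sets the same letter effects in all 6 groups, changed no other call of the members. With the compared groups alone the CHOP-/- rises at 4 h were not called for Ppp1r15a (1.09) and Trib3 (1.34). Without the arrays A and B of every group, chosen after seeing the data, the values not called were 1.55, 0.95 and 1.35 for Ppp1r15a (wild type 4 h, CHOP-/- 4 h and 8 h), 1.68 and 1.35 for Trib3 (wild type and CHOP-/- 4 h) and -1.12 and -1.0 for Ppp1r15a between genotypes at 4 h and 8 h, while Nupr1 from 4 h to 8 h in CHOP-/- cells became called (1.03). Without C and D, Trib3 in CHOP-/- cells at 4 h was not called (1.34). Values near 0 changed sign. Nupr1 in CHOP-/- cells at 4 h was 0.12 with array weights and 0.55 without C and D, and from 4 h to 8 h it was -0.02 without C and D. Nupr1 between genotypes was -0.21 at 4 h without wild type 4 h arrays A and C, and -0.48 at 4 h and -0.01 at 8 h without A and B. Its response difference from 4 h to 8 h was 0.08 with array weights, 0.25 without wild type 4 h A and C and 0.46 without A and B, and that of Trib3 was -0.01 without C and D. With each array left out in turn, ranges that crossed 0 were -0.19 to 0.13 (Nupr1, CHOP-/- 4 h), -0.10 to 0.23 and -0.08 to 0.19 (Nupr1 between genotypes at 4 h and 8 h), and -0.01 to 0.19, -0.09 to 0.20 and -0.19 to 0.14 (response differences from 4 h to 8 h of Ppp1r15a, Trib3 and Nupr1); Trib3 between genotypes ran from -1.11 to -0.81 at 4 h.

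Counts of called genes moved more. They were 121 in wild type at 4 h (8 to 190 over all alternatives), 943 at 8 h (214 to 1467) and 235 from 4 h to 8 h (8 to 346). In CHOP-/- cells they were 85 (3 to 125), 790 (147 to 1050) and 315 (9 to 489). Between genotypes they were 56 untreated (10 to 88), 142 at 4 h (15 to 201) and 238 at 8 h (16 to 659, the highest with the compared groups alone and the letter as a block), and for the response difference 0 (0 to 1) at 4 h and 2 (0 to 5) at 8 h. For comparisons of 2 groups the lowest counts came without A and B or without C and D, which leave 2 arrays per group. Centring each array on its median moved the share of calls that were rises from 58.0% to 68.7% in wild type and from 52.5% to 66.1% in CHOP-/- cells at 8 h, and from 50.6% to 66.1% and from 61.6% to 79.8% from 4 h to 8 h.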
